A study of Mus musculus with 5 samples.

Results

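The genes described here encode the synaptic vesicle release machinery, the proteins that dock, prime and fuse transmitter-filled vesicles at the presynaptic membrane. They were taken by a rule on gene names. Every gene of the deposited table was taken whose symbol is Syn, Syt, Snap, Stx, Vamp, Cplx, Stxbp, Rims, Unc13 or Sv2 followed directly by a number or, for Unc13 and Sv2, by a letter, together with the Rab3 genes, Syp and Nsf. The rule gave 70 of the 15093 genes in the table. The rule uses no measured value.

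Neurotransmitter release rests on SNARE proteins, of which Vamp2 sits on the vesicle and Snap25 and a syntaxin on the target membrane, and whose zippering into a bundle brings both membranes together. Syntaxin-binding proteins (Stxbp genes) hold and guide syntaxins, Munc13 proteins (Unc13 genes) prime vesicles, RIM proteins (Rims genes) and Rab3 tie vesicles to the release site, complexins hold and assist the partly assembled bundle, and synaptotagmins such as Syt1 trigger fusion when calcium enters. Nsf then takes spent SNARE bundles apart for reuse. Most of these components exist as several related genes, which different neurons use to different extents.

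The libraries hold RNA bound to ribosomes of Drd2-expressing neurons in the central amygdala (CeA) of adult mice. Drd2-TRAP mice carried a Drd2-Cre transgene and a Rosa26 allele from which Cre releases an EGFP-tagged ribosomal protein, L10a, driven by the ubiquitous CAG promoter, so that tagged ribosomes mark any cell in which the Drd2-Cre transgene had been active, and the tag itself does not follow the current activity of the Drd2 gene. Mice of both groups were Drd2-TRAP mice. Bilateral 1 mm punches from 3 animals were pooled per library and the tagged ribosomes were pulled down (translating ribosome affinity purification, TRAP). There were 3 libraries from mice that underwent auditory fear conditioning (fear conditioned, replicates 1 to 3) and 2 from home cage mice (control, replicates 1 and 2), numbered here in the order of the deposited samples, which carry the library numbers 2, 3, 4, 6 and 7. Tissue was taken 2 h after the session, which the sample labels call extinction and the study's methods call conditioning, and the study's text also describes controls that heard the tone, whereas the labels give home cage. The comparison asks which ribosome-bound transcripts differ after fear learning, and here it is read for the release machinery.

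Each gene's value is a normalized signal close to counts per 1000000 reads (CPM), and the recovered reads ranged from 19605318 to 27937520 per library. A floor of 3 reads corresponded to between 0.1002 and 0.158 CPM. The 70 members held 1.69% to 1.93% of all reads. Libraries differed in more than the condition. Genes at 0 numbered 159 to 349 per fear conditioned library, but 976 in control replicate 1 and 2681 in control replicate 2. All 6 genes of a list for Drd2-bearing striatal-type neurons lay above both controls in every fear conditioned library, with summed values of 19099.5 to 20787.7 CPM against 7609 and 11954 CPM, and none of them was at 0 in any library. Over all genes tested, 20.2% lay higher and 16.1% lower without overlap, which is the share to set beside the counts of each list. Summed values of 12 genes of pallial glutamatergic neurons were 434 to 578 CPM in the fear conditioned and 769 and 1105 CPM in the control libraries, with 1 of the 12 above and 6 below the controls without overlap and 1 of them at 0 in control replicate 1. Choroid plexus genes, 7 in all, summed to 59.2 to 111 CPM against 1019 and 1446 CPM, with 4 of the 7 below without overlap. Most of the control sums was Ttr alone (913 and 1320 CPM). Most of the fear conditioned sums was Clic6, which overlapped (50.9, 77.2 and 56.2 CPM against 51.1 and 64.2 CPM). Astrocyte genes (6) summed to 229 to 304 CPM against 656 and 493 CPM, with 3 of the 6 below. Oligodendrocyte genes (6) summed to 1248 to 2640 CPM against 2707 and 5183 CPM, also with 3 below, so that the sums of these 3 non-neuronal lists were lower in every fear conditioned library. Of the other lists, 3 Drd1a neuron genes summed to 165 to 342 CPM against 103 and 99.7 CPM, with 2 of the 3 above without overlap. The 3 GABA neuron genes summed to 1283 to 1425 CPM against 1399 and 1824 CPM, with 1 below. The 6 interneuron genes summed to 152 to 262 CPM against 322 and 506 CPM, with 2 below. Genes of microglia (6) summed to 50.4 to 91.6 CPM against 102 and 83.0 CPM and of endothelium (5) to 6.91 to 30.7 CPM against 27.2 and 161 CPM. Each of these 2 lists had 1 tested gene above and 1 below without overlap. Of the 161 CPM in control replicate 2, 150 CPM came from Ly6c1 alone. What part these differences in marker signal have in the values of the release genes was not tested, and in pooled tissue fewer cells of a type and less RNA per cell cannot be told apart. The libraries are pull-downs, and whether the signal of a list came from tagged ribosomes or from other RNA of the punch was not tested.

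Promoter windows were held by the RefSeq table (GRCm38.p6) for 54 of the 70 members, from 250 bases before to 50 after each annotated start. The GC box, GGGCGG on either strand, was present in 42 of the 54 members (77.8%) and in 10324 of 27025 genes with windows (38.2%). These 27025 genes were not limited to the 15093 genes of the deposited table, so the sets of genes are unlike. Some members had more than 1 window (68 windows in all), and any of them could hold a match. The full cyclic AMP response element, TGACGTCA, the site bound by the activity-dependent factor CREB, was in 1 member (1.85%), Syn1, and in 549 of all genes (2.03%). A match is a description of these letters only. The last 100 bases before the annotated start are given for the members that DESeq2 called in the comparison of the groups and that had a window, so that their starts can be compared, with the GC box in capitals. For Syn1 the 60 bases round its cyclic AMP response element are given, the element in capitals, its first base 159 bases before the start.
Cplx1, chr5:108550028-108550127, minus strand: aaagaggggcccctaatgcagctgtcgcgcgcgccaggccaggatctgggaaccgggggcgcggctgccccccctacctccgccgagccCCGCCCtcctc
Syt6, chr3:103575145-103575244, plus strand, the first of 3 annotated starts: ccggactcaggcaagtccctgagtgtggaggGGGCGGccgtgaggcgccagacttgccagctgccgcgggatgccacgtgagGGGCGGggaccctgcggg
Rab3c, chr13:110280207-110280306, minus strand: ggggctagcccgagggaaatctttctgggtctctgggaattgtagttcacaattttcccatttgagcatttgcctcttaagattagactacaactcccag
Syn2, chr6:115134802-115134901, plus strand, the first of 2 annotated starts: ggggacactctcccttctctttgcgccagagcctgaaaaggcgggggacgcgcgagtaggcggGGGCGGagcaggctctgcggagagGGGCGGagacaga
Syn1, chrX:20921044-20921103, minus strand: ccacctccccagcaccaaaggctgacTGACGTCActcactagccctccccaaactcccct
In these 100 bases Syt6 and Syn2 each held 2 GC boxes, Cplx1 held 1 and Rab3c held none.

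Across the release machinery, 29 of the 69 tested genes had no overlap between the groups and 40 overlapped. Over all genes tested, 4930 of 13560 had no overlap (20.2% higher and 16.1% lower). Syt6, Syt12, Syt3, Cplx1 and Stx6 were higher in every fear conditioned library than in either control, while Rab3c, Syn2 and Stxbp2 were lower in every one, and these 8 were the members with an unadjusted p under 0.05 in limma. Of the 70 members, 69 had a mean value of at least 1 CPM and were tested on log2(CPM + 1). None passed limma at an adjusted p under 0.05 with an absolute log2 fold change over 0.5, and neither did any of the 13560 genes tested (0%). The smallest adjusted p of a member in limma was 0.197. An unadjusted p under 0.05 was reached by 5 members with higher values (7.25%) and 3 with lower values (4.35%), against 9.49% and 7.32% of all genes tested. No result about the members is read from these shares. For higher values the order of the shares turned without fear conditioned replicate 1 or 3. DESeq2 on the recovered reads called 3 members higher (Syt6, Cplx1 and Syt12, 4.35% against 3.69% of all genes) and 2 lower (Rab3c and Syn2, 2.90% against 3.81%). In contrast, limma voom and the quasi-likelihood test of edgeR called 0 members and 0 of all genes. With TMM scaling both gave an unadjusted p under 0.05 in 6 members higher and 4 lower, for which no share of all genes was taken.

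As a description, the balance of directions differed from that of the whole table. Values did not overlap between the groups in 11 of the tested members that lay higher (15.9%, against 20.2% of all genes) and in 18 that lay lower (26.1%, against 16.1%). The fitted log2 fold change was positive for 30 members (43.5%) and negative for 39 (56.5%), against 54.0% and 46.0% of all genes tested. Its median was -0.11 against 0.08 over all genes tested. DESeq2 gave 23 positive and 46 negative, with a median of -0.25 against -0.11 over all genes tested. In limma the log2 fold changes of the members ranged from -2.12 to 1.96. The low end was Stx19, a syntaxin with 9 reads in fear conditioned replicate 3, 439 in control replicate 2 and 0 in the other libraries, named here after its values were seen, and the high end was Syt10. These counts rest on both controls. Without control replicate 1, 30 members lay higher and 29 lower without overlap (43.5% and 42%, against 50.2% and 37.3% of all genes). The median log2 fold change was then 0.06, against 0.23 over all genes tested. Without control replicate 2, 20 members lay higher and 39 lower (29% and 56.5%, against 37.3% and 40.7% of all genes). The median was then -0.27, against -0.03 over all genes tested. With either control left out, the median of the members stayed below that of all genes. Leaving out fear conditioned replicates 1, 2 and 3 in turn changed the number higher at an unadjusted p under 0.05 in limma to 4, 2 and 3. These were 5.8%, 2.9% and 4.35% of the members, against 4.8%, 3.83% and 3.56% of all genes. For lower values the numbers were 2, 2 and 1 in the same order. These were 2.9%, 2.9% and 1.45% of the members, against 3.46%, 3.47% and 3.14% of all genes.

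**Figure D1:**
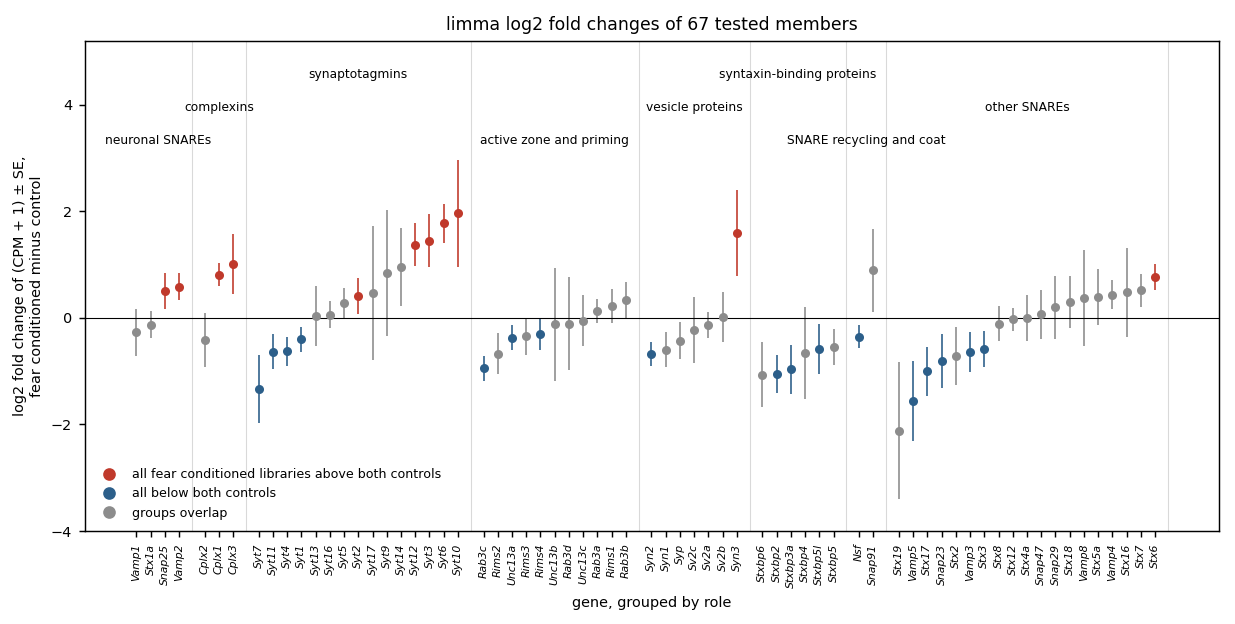
The log2 fold change of (CPM + 1), fear conditioned minus control, with its standard error from limma is plotted for 67 of the 69 tested members, grouped by role and coloured by whether the 3 fear conditioned and 2 control libraries overlap. The 6 syntaxin-binding genes drawn all sit below 0, and 11 of the 15 synaptotagmins sit above it (8 in DESeq2).

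Fusion itself is carried by the neuronal SNAREs, and the most abundant of them lay higher after fear conditioning without passing limma. Vamp2 (ENSMUSG00000020894), the vesicle SNARE, had 2539, 2500 and 2261 CPM in the fear conditioned and 1481 and 1774 CPM in the control libraries. All 3 fear conditioned values exceeded both controls, with group means of 2433 ± 151 (SD, n = 3) and 1627 ± 208 (SD, n = 2), and the log2 fold change was 0.58 ± 0.25 (SE, adjusted p = 0.318, limma). Snap25 (ENSMUSG00000027273), the target-membrane SNARE with which Vamp2 pairs, was measured at 4788, 6364 and 4599 CPM against 4243 and 3172 CPM. These ranges did not overlap either, the log2 fold change was 0.50 ± 0.34 (SE, adjusted p = 0.484, limma), and its direction turned to -0.17 under quantile normalization. Stx1a, a syntaxin of the same bundle, overlapped between the groups. It had 87.8, 89.5 and 66.5 CPM against 93.0 and 83.8 CPM. Vamp1, a close relative of Vamp2, overlapped too, at 91.0, 44.4 and 109 CPM against 73.7 and 115 CPM.

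Of the 3 complexins, Cplx1 and Cplx3 lay higher without overlap and Cplx2 did not separate. Cplx1 (ENSMUSG00000033615), a small protein that binds the SNARE bundle just before fusion, had 885, 1074 and 927 CPM in the fear conditioned and 577 and 516 CPM in the control libraries. The lowest fear conditioned library exceeded the highest control by a wide margin. Means were 962 ± 99.2 (SD, n = 3) and 547 ± 43.2 (SD, n = 2), a 1.76-fold difference, with a log2 fold change of 0.81 ± 0.22 (SE, adjusted p = 0.206, limma). DESeq2 gave 0.79 with an adjusted p of 0.00634, and over all alternatives the adjusted p ranged from 0.00634 to 0.711 while the log2 fold change stayed between 0.73 and 0.89. Cplx2, which shares the role of Cplx1 in many forebrain neurons, had 419, 430 and 554 CPM against 339 and 1134 CPM. Its direction was set by control replicate 2, since the log2 fold change was -0.42 ± 0.50 with both controls and 0.45 without that library (adjusted p = 0.692 with both, limma). Cplx3, best known from retinal synapses, was low at 3.603, 3.41 and 3.43 CPM against 2.14 and 0.580 CPM, with a log2 fold change of 1.01 ± 0.57 (SE, adjusted p = 0.414, limma). The lower of its controls rested on 11 reads.

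Of the 15 synaptotagmins, 5 lay higher and 4 lower without overlap (20.2% and 16.1% over all genes), and the median log2 fold change was 0.41. Among these genes, 11 had a positive log2 fold change in limma and 8 in DESeq2. Without control replicate 2 limma also gave 8, with a median of 0.06 against -0.03 over all genes tested. Syt6 (ENSMUSG00000027849), a calcium-binding synaptotagmin best known from exocytosis of the sperm acrosome, had the largest difference among members that DESeq2 called. It had 89.4, 194 and 129 CPM in the fear conditioned and 39.8 and 35.4 CPM in the control libraries. The fear conditioned values spread over a wide range, yet the lowest still lay well above both controls. Means were 138 ± 52.8 (SD, n = 3) and 37.6 ± 3.13 (SD, n = 2), a 3.66-fold difference, with a log2 fold change of 1.78 ± 0.36 (SE, adjusted p = 0.197, limma). DESeq2 gave 1.84 with an adjusted p of 0.00112, and over all alternatives the adjusted p ranged from 0.00112 to 0.711 and the log2 fold change from 1.49 to 2.05. Syt12 (ENSMUSG00000049303), a vesicle protein that does not bind calcium, was less abundant, at 32.3, 45.4 and 32.1 CPM against 16.9 and 10.4 CPM. Its log2 fold change was 1.37 ± 0.40 (SE, adjusted p = 0.217, limma) and stayed between 1.05 and 1.70. DESeq2 gave an adjusted p of 0.0445, the lowest of the settings that kept both controls, whose range reached 0.711. Syt3 (ENSMUSG00000030731), a synaptotagmin with high calcium affinity, was even across the fear conditioned libraries at 72.4, 85.6 and 88.8 CPM and uneven in the controls at 52.8 and 16.2 CPM. The log2 fold change of Syt3, 1.45 ± 0.50 (SE, adjusted p = 0.246, limma), was 0.63 without control replicate 2 and 2.27 without control replicate 1. DESeq2 did not call it (adjusted p = 0.157, the lowest of the settings that kept both controls, whose range reached 0.711).

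The fast calcium sensors went in opposite directions without either passing limma. Syt1, the main trigger of synchronous release in forebrain neurons, had 523, 714 and 590 CPM in the fear conditioned and 753 and 845 CPM in the control libraries. Every fear conditioned value was lower, and the log2 fold change was -0.40 ± 0.23 (SE, adjusted p = 0.425, limma). Syt2, the sensor of fast-releasing neurons, had 40.6, 42.6 and 66.8 CPM against 34.5 and 38.2 CPM, all higher but by a small margin (log2 fold change 0.41, adjusted p = 0.549, limma). Syt9, a further fast sensor, was enclosed by the controls, at 4.31, 12.04 and 10.1 CPM against 18.9 and 0.316 CPM. The slow sensor Syt7, which serves asynchronous release and vesicle replenishment, had 49.4, 38.6 and 44.5 CPM against 51.1 and 246 CPM. Its fear conditioned values and control replicate 1 lay close together and control replicate 2 far above, so that the log2 fold change of -1.34 ± 0.63 (SE, adjusted p = 0.345, limma) became -0.21 without that library. Among the other synaptotagmins, Syt11, which lacks calcium binding, had 581, 746 and 795 CPM against 809 and 1467 CPM. Syt10 had 299, 229 and 255 reads against 285 reads in control replicate 1 and 1 read in control replicate 2, and its log2 fold change of 1.96 was 0.30 without that control library. The remaining 6 members of the group were called by neither limma nor DESeq2 with all libraries.

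Of the 11 tested genes of vesicle docking and priming, 3 lay below the controls without overlap and none above (16.1% and 20.2% over all genes), with 8 negative log2 fold changes and a median of -0.12. These signs rest on control replicate 1, without which 6 were positive and 5 negative. The median was then 0.07, against 0.23 over all genes tested. Rab3c (ENSMUSG00000021700), a small GTPase of the vesicle surface that binds RIM, was the member of this role that separated best. It had 160, 200 and 191 CPM in the fear conditioned and 401 and 312 CPM in the control libraries. No fear conditioned library came near either control. Means were 184 ± 21.0 (SD, n = 3) and 357 ± 63.1 (SD, n = 2), 1.94-fold higher in the controls, with a log2 fold change of -0.95 ± 0.23 (SE, adjusted p = 0.199, limma). DESeq2 gave -0.98 with an adjusted p of 0.00452, and over all alternatives the adjusted p ranged from 0.00452 to 0.711 and the log2 fold change from -1.13 to -0.77. Rab3a, the main Rab3 of brain synapses, was level between the groups at 1006, 907 and 791 CPM against 870 and 782 CPM. Rab3b was likewise overlapping, at 58.6, 37.4 and 60.5 CPM against 44.4 and 36.4 CPM.

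The RIM scaffolds of the active zone overlapped between the groups for Rims1, Rims2 and Rims3. Rims1 had 48.4, 78.6 and 74.7 CPM against 50.8 and 62.4 CPM. Rims2 had 27.6, 50.9 and 42.6 CPM against 49.2 and 80.3 CPM, with a log2 fold change of -0.67 (adjusted p = 0.423, limma). Rims3, a short RIM without the Rab3-binding part, had 56.1, 68.2 and 48.9 CPM against 99.1 and 53.7 CPM, and its log2 fold change of -0.35 became 0.09 without control replicate 1. Among the Munc13 priming factors, Unc13a, the main one of forebrain glutamate synapses, was lower in every fear conditioned library, at 87.1, 102 and 85.4 CPM against 104 and 134 CPM (log2 fold change -0.37, adjusted p = 0.461, limma). Unc13b and Unc13c were enclosed by their controls. Unc13b had 7.68, 8.70 and 6.90 CPM against 32.6 and 1.69 CPM, and Unc13c had 33.4, 37.5 and 51.4 CPM against 25.3 and 68.0 CPM, and for both the sign of the difference depends on which control is used. Unc13d, known for granule release in blood cells, was the only member under the filter on low values, with 22, 13 and 8 reads against 7 and 3 reads.

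**Figure D2:**
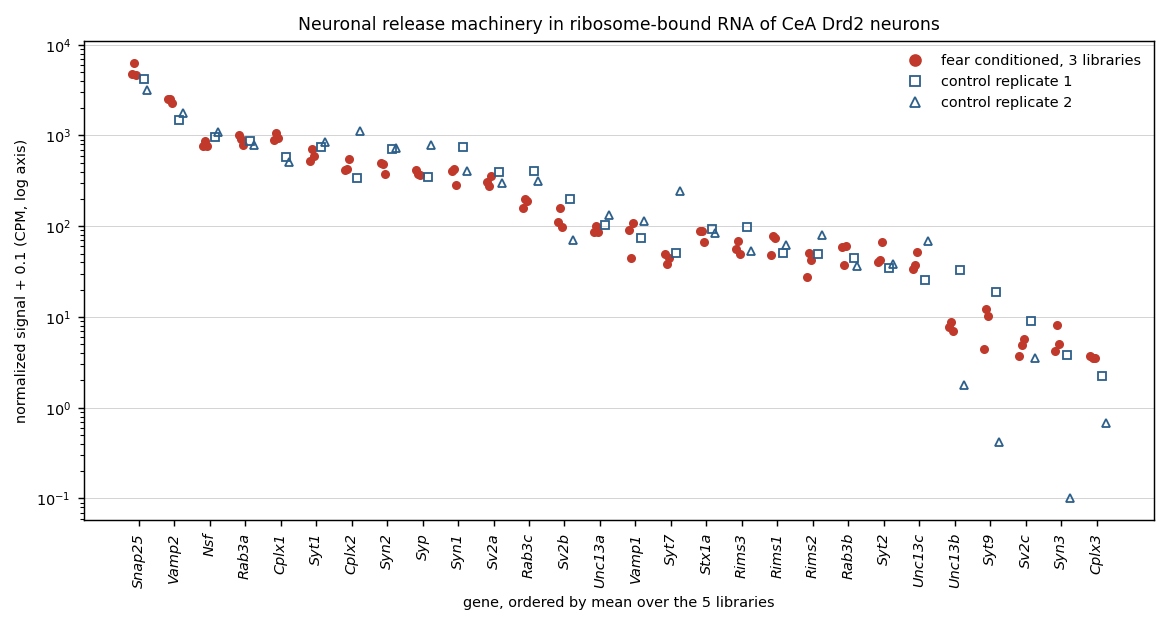
The normalized signal of the neuronal release genes in each library is plotted on a log axis as CPM + 0.1, genes ordered by their mean over the 5 libraries, with the 3 fear conditioned and 2 control libraries as separate points. Cplx1 and Vamp2 have all fear conditioned points above the controls and Rab3c and Syn2 all below, and for Syt7, Syt9 and Unc13b the controls lie far from each other.

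Proteins of the vesicle itself gave 1 member that DESeq2 called. Syn2 (ENSMUSG00000009394), a synapsin that tethers reserve vesicles to each other, had 493, 487 and 378 CPM in the fear conditioned and 708 and 734 CPM in the control libraries. The controls lay close together and above all fear conditioned values. Means were 453 ± 64.6 (SD, n = 3) and 721 ± 17.9 (SD, n = 2), 1.59-fold higher in the controls, with a log2 fold change of -0.68 ± 0.22 (SE, adjusted p = 0.235, limma). The DESeq2 value was -0.70 with an adjusted p of 0.0442, the lowest over the alternatives, whose range reached 0.711. Syn1, the founding member of the synapsins, overlapped, at 402, 422 and 283 CPM against 740 and 409 CPM. Syn3 was low, at 4.17, 8.08 and 4.92 CPM against 3.67 and 0 CPM. All fear conditioned values lay above both controls, and the size of its log2 fold change, 1.59, rests on control replicate 2, without which it was 0.48. The transporter-like SV2 proteins and synaptophysin, standard vesicle markers, all overlapped. Sv2a had 309, 279 and 361 CPM against 399 and 299 CPM. Sv2b had 111, 158 and 98.1 CPM against 200 and 69.9 CPM, with a log2 fold change of 0.02 that was -0.15 in DESeq2. Sv2c, low in all libraries, had 3.65, 4.83 and 5.61 CPM against 8.88 and 3.43 CPM. Synaptophysin (Syp) had 419, 381 and 366 CPM against 350 and 776 CPM, and the log2 fold change of -0.43 became 0.15 without control replicate 2.

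The 7 syntaxin-binding genes shared a direction in limma, with a median log2 fold change of -0.66, and 4 of the 7 lay below both controls without overlap (16.1% over all genes). All 7 were also negative under quantile normalization, TMM and upper quartile scaling in edgeR, and in DESeq2, while without control replicate 2 it was 6 of the 7. None was called by limma or DESeq2 with all libraries (limma called 0 at any setting with all libraries, DESeq2 5 members of other roles), and only Stxbp2 had an unadjusted p under 0.05 in limma. Stxbp2 (ENSMUSG00000004626), used in granule release outside the nervous system, had 23.9, 21.7 and 28.0 CPM against 40.6 and 65.5 CPM. All 3 values lay below the lower control, and the log2 fold change was -1.05 ± 0.36 (SE, adjusted p = 0.243, limma). DESeq2 gave it an adjusted p of 0.0990, the lowest of the settings that kept both controls, whose range reached 0.711. Stxbp3a, a broadly expressed member, lay lower as well, at 9.58, 8.29 and 11.7 CPM against 18.2 and 21.9 CPM. Stxbp6 had 33.0, 55.5 and 47.6 CPM against 192 and 45.6 CPM, so that control replicate 1 alone stood above the rest.

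The genes for SNARE recycling and the vesicle coat differed in sign. Nsf, the ATPase that separates spent SNARE bundles, had 770, 876 and 764 CPM in the fear conditioned and 966 and 1081 CPM in the control libraries. Each fear conditioned value was below both controls, and the log2 fold change was -0.35 ± 0.22 (SE, adjusted p = 0.446, limma). Snap91, a clathrin adaptor that shares its name but not its function with the SNAP SNAREs, had 90.1, 135 and 97.4 CPM against 153 and 20.6 CPM, overlapping, with a log2 fold change of 0.89 ± 0.78 (SE, adjusted p = 0.583, limma).

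The other 19 SNAREs, which serve the Golgi, endosomes and plasma membrane of most cells, had a median log2 fold change of -0.00, with 1 above and 5 below the controls without overlap (20.2% and 16.1% over all genes). Stx6 (ENSMUSG00000026470), a syntaxin of the trans-Golgi network and endosomes, had 267, 397 and 273 CPM in the fear conditioned and 184 and 176 CPM in the control libraries. The 2 controls were almost equal and the fear conditioned libraries all higher. Its means were 312 ± 73.6 (SD, n = 3) and 180 ± 5.83 (SD, n = 2), and the log2 fold change was 0.77 ± 0.25 (SE, adjusted p = 0.235, limma). DESeq2 gave Stx6 an adjusted p of 0.0929, the lowest of the settings that kept both controls, whose range reached 0.711. Stx3, a syntaxin of polarized membranes and ribbon synapses, lay lower at 28.4, 26.5 and 31.7 CPM against 53.6 and 35.4 CPM. Snap47 was enclosed, at 387, 437 and 358 CPM against 653 and 215 CPM.

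Compared per length, using the gene length in the deposited table, a few genes carried most of the signal. Snap25 was highest at 669 CPM per kb (mean of the 5 libraries), followed by Vamp2 at 538, Rab3a at 366, Cplx1 at 353 and Syt5 at 171 CPM per kb. Among the synaptotagmins, Syt5 (group means of 185 and 151 CPM per kb in fear conditioned and control libraries) and Syt11 (82.8 and 133) stood above Syt1 (53.3 and 70.0). The place of Syt5 above Syt1 rests on the deposited lengths, 1739 bases for Syt5 and 11419 for Syt1. Before division by length Syt5 stood below Syt1, with group means of 321 and 262 CPM against 609 and 799 CPM. Syt11 stood above Syt1 either way (707 and 1138 CPM). Within families the shares of signal per length moved with single genes. Cplx1 held 82.0%, 84.3% and 78.3% of the complexin signal in the fear conditioned libraries and 78.6% in control replicate 1, but 49.9% in control replicate 2. Rab3c held 3.28%, 4.54% and 4.83% of the Rab3 signal against 8.94% and 7.91%, while Rab3a held most of it in every library, between 87.2% and 92.8%. Syt6 held 2.83%, 6.40% and 4.53% of the synaptotagmin signal against 1.30% and 1.06%.

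**Figure D3:**
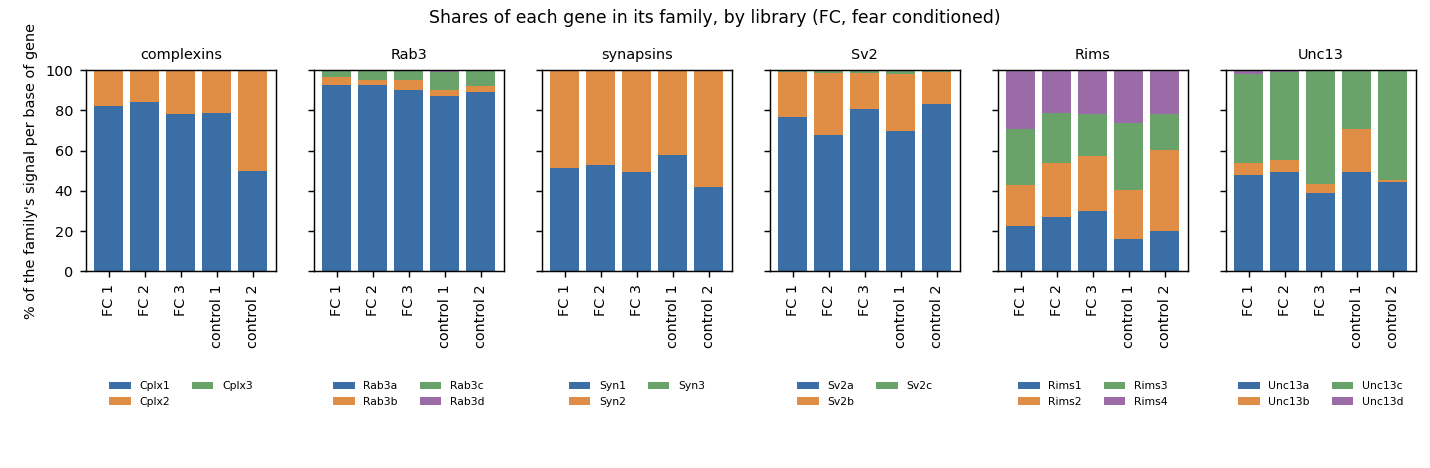
Stacked bars give the share of each gene in the signal per base of gene of its family, in percent, for each of the 3 fear conditioned (FC) and 2 control libraries. Control replicate 2 has a complexin bar divided about evenly between Cplx1 and Cplx2, and both controls show a larger Rab3c share (8.94% and 7.91%) than the fear conditioned libraries.

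A ratio of related genes within a library, taken without a pseudocount, does not depend on the scaling between libraries, and 13 such pairs are given. The groups did not overlap in 5 of them, 3 higher and 2 lower in the fear conditioned libraries, given as values with no test. Of all single genes tested, 20.2% lay higher and 16.1% lower without overlap. No such share was computed over other pairs of genes. The log2 ratio of Rab3a to Rab3c was 2.65, 2.18 and 2.05 in the fear conditioned and 1.12 and 1.32 in the control libraries. Rims1 to Rims2 stood at 0.81, 0.63 and 0.81 against 0.05 and -0.36, although neither gene separated alone. The vesicle SNARE pair Vamp2 to Vamp1 had 4.802, 5.81 and 4.38 against 4.33 and 3.94, a narrow gap. Of the pairs that lay lower, the fast calcium sensors Syt1 to Syt2 had 3.69, 4.07 and 3.14 against 4.45 and 4.47. Syn1 to Syn3, with 1 CPM added to each because Syn3 had no read in control replicate 2, had 6.29, 5.54 and 5.59 against 7.31 and 8.68. Cplx1 to Cplx2 overlapped narrowly, at 1.08, 1.32 and 0.74 against 0.77 and -1.13. Without control replicate 1 the number of pairs without overlap was 10 of 13, and without control replicate 2 it was 9. Single genes without overlap also became more frequent. They were 50.2% higher and 37.3% lower without control replicate 1, and 37.3% and 40.7% without control replicate 2.

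**Figure D4:**
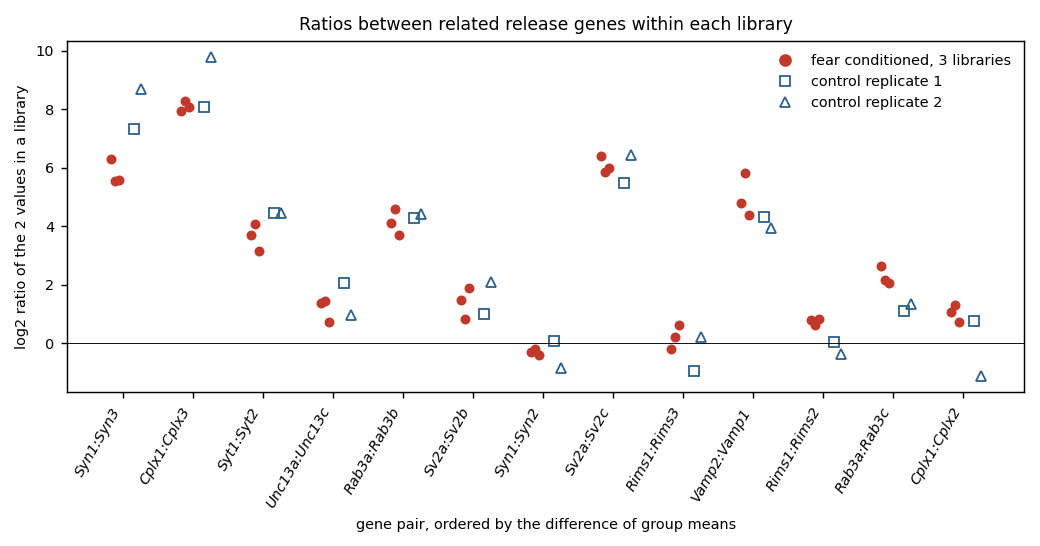
For each of the 13 gene pairs the log2 ratio of the 2 values in a library is plotted, with 3 fear conditioned and 2 control points, ordered by the difference of group means. Rab3a:Rab3c and Rims1:Rims2 have all fear conditioned points above the controls and Syt1:Syt2 and Syn1:Syn3 all below.

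Spread within the groups was set by the control pair. Over the 69 tested members the median gap between the 2 controls was 0.79 on the log2 scale, and the median range over the 3 fear conditioned libraries was 0.45. The gap exceeded the range in 48 members (69.6%), against 75.7% of all genes tested. Control replicate 1 was the higher of the pair for 44 members and control replicate 2 for 25. Control replicate 1 held the highest value of the 5 libraries for 29 of the 69 members and control replicate 2 for 21 of the 69. Of all genes tested, these libraries held the highest value for 29.98% and 31.9%. Control replicate 2 also held the lowest value for 28 of the 69 members, and it did so for 43.7% of all genes tested.

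**Figure D5:**
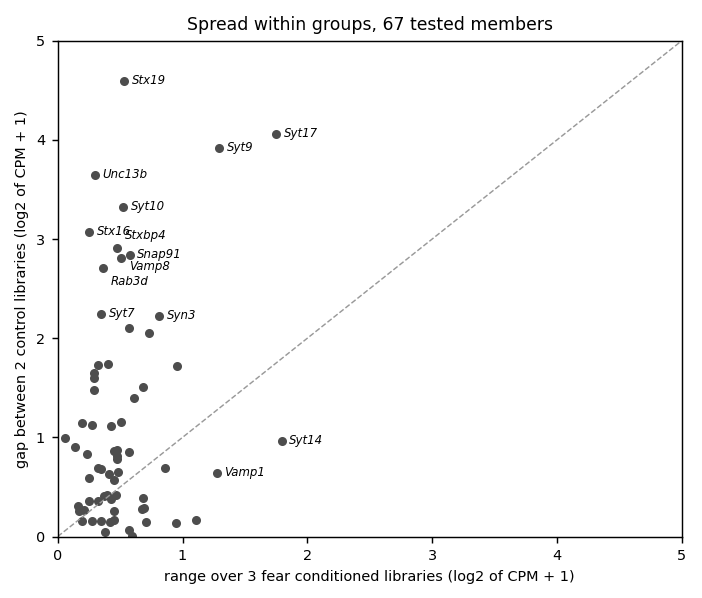
Each point is 1 of 67 tested members, with the range over the 3 fear conditioned libraries on the horizontal axis and the gap between the 2 control libraries on the vertical axis, both in log2 of CPM + 1. Of the 67 points, 47 lie above the diagonal, where the control gap is the larger.

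Other genes of the release pathway, a list of 54 of which 51 were in the table and 50 were tested, also gave no call in limma. It holds the active zone scaffolds, SNARE recycling factors, transmitter transporters, synaptogyrins, endocytic proteins and further calcium sensors. The test called 0 of them, with an unadjusted p under 0.05 in 5 higher and 8 lower (9.49% and 7.32% over all genes), and values without overlap in 9 higher and 15 lower (20.2% and 16.1% over all genes). The median log2 fold change was -0.03. DESeq2 called 2 higher and 4 lower (3.69% and 3.81% over all genes), and edgeR's quasi-likelihood test called 0. Bsn (Bassoon), an active zone scaffold, had 73.9, 47.3 and 55.3 CPM in the fear conditioned and 89.3 and 255 CPM in the control libraries. Rph3a (rabphilin), which binds Rab3 on vesicles, was likewise highest in control replicate 2, at 73.8, 55.8 and 63.1 CPM against 101 and 232 CPM. The 3 cofactors with which Nsf takes SNARE bundles apart differed in sign. Napb lay lower, at 347, 466 and 372 CPM against 571 and 592 CPM. Napa lay higher, at 581, 788 and 551 CPM against 446 and 409 CPM. Napg overlapped, at 171, 249 and 171 CPM against 238 and 92.3 CPM.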

How the data were processed

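Drd2-TRAP RNA from mouse CeA was sequenced as 50-base read pairs by the authors, who name their analysis Tuxedo DESeq. The submitters' processing notes name DESeq and the build mm8, and the aligner, the counter, their versions and the use of strand are not given in the sources used here, so reads of overlapping genes or near-identical paralogs may be shared. The authors deposited a normalized signal per gene and library, close to CPM, beside a gene length in bases that is a deposited score of the gene and not of a sample. All values of a library (100%) were whole multiples, within 0.01, of the value of 1 read, and these recovered reads gave the depth. The table holds 15093 genes, 43 gene names are repeated, 9 lengths are below 0 (none of a member), and all 70 member identifiers matched a gene table. Groups follow the sample labels.

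The groups were compared two-sided on log2(value + 1) by limma 3.58.1 (R 4.3.3, eBayes with a trend). The fit covered the 13560 genes whose values averaged 1 or more, and p values were adjusted over all of them (Benjamini-Hochberg). A call required an absolute log2 fold change above 0.5 and an adjusted p below 0.05. Fold changes on this scale understate those of low genes. An exact permutation test over 5 libraries cannot go below a p of 0.1, so adjusted p values come from limma. P values measure the spread between pools of 3 animals, and the labels do not say whether pools were collected separately. Floors of 3 reads cover counting error only. The design written beforehand allowed for counts or normalized values, and the table holds the latter. Alternatives were a pseudocount of 0.1, 2 other filters, quantile normalization, an adjusted p of 0.1, no fold cutoff, each library left out, and edgeR 4.0.16, DESeq2 1.42.0 and limma voom on recovered reads. The steps were tested on simulated data. Values per library are given for the neuronal release genes and for members with an unadjusted p under 0.05 or called by any tool, with up to 2 examples of each other role. The values of 2 members, which stay in the counts over the members, are not reported here. Members and gene lists were chosen with earlier results of these data known. RefSeq promoter windows are from GRCm38.p6.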

Additional observations from a re-analysis of the deposited data

How the results depend on the processing

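Control replicates decided most counts, and with 1 control left the lone library was assumed to vary like the other group. Leaving out each library in turn gave 0 to 33 of 69 members and 0 to 7956 of 13560 genes called by limma (33 members, 47.8%, and 58.7% of genes without control replicate 1), 2 to 22 higher and 1 to 20 lower at an unadjusted p under 0.05, 12 to 30 higher and 18 to 39 lower without overlap, a median log2 fold change of -0.27 to 0.0611, and 5 to 10 gene pairs without overlap. DESeq2 called 5 members and 6 other release genes, against 0 and 0 in limma. Of all 13560 genes it called 1017. It gave a median of -0.25, and 10 members lower at an unadjusted p under 0.05. The number lower was 5 where every library had to reach 1 CPM and 5 under quantile normalization, against 3. For these counts of members lower no share of all genes was taken. Against the main limma fit, the median log2 fold change of all genes moved by -0.19 in DESeq2 and by -0.15 in edgeR with TMM scaling. In limma voom, also with TMM scaling, it was 0.17, against 0.08 in the main fit. These shifts therefore hold the method of fitting as well as the scaling. With a library left out, the limma median over all genes ranged from -0.03 to 0.23. Of the 33 members given with values under the alternatives, 21 kept their direction under every one. Directions turned for Snap25 under quantile normalization (-0.17), Sv2b under TMM (-0.12), upper quartile (-0.0941), DESeq2 (-0.15) and voom (-0.0184), Syt9 under TMM (-0.0829), upper quartile (-0.11) and DESeq2 (-0.11), Unc13b with a pseudocount of 0.1 (0.0342), and Unc13c under quantile normalization (0.12) and voom (0.0705). With a library left out, the ranges that crossed 0 were -1.29 to 0.45 for Cplx2, -0.78 to 0.0884 for Rims3, -0.21 to 0.0049 for Stx1a, -0.34 to 0.0720 for Sv2a, -0.74 to 0.77 for Sv2b, -0.81 to 0.35 for Sv2c, -0.999 to 0.15 for Syp, -1.12 to 2.80 for Syt9, -1.94 to 1.70 for Unc13b, -0.75 to 0.64 for Unc13c and -0.59 to 0.11 for Vamp1. The cause was not tested. No paired analysis was possible because the labels give no pairing between the groups. With 3 and 2 libraries, members of low signal such as Syn3, Syt10, Syt14 and Syt17 rest on single libraries.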

Other observations

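Transmitter transporters, which fill the vesicles, were measured beside the release genes. Slc17a6, the vesicular glutamate transporter of subcortical and some cortical glutamate neurons, had 4.65, 7.75 and 3.18 CPM in the fear conditioned and 61.7 and 20.4 CPM in the control libraries. All 3 fear conditioned values lay below both controls, with a log2 fold change of -2.63 ± 0.67 (SE, adjusted p = 0.200 in limma, 0.00248 in DESeq2). Slc17a8, a glutamate transporter also carried by some non-glutamatergic neurons, was listed at 0 in both controls and reached 2.09, 4.12 and 10.3 CPM after fear conditioning (adjusted p = 0.214 in limma, 5.23e-04 in DESeq2). Slc32a1, which loads GABA and glycine, had 27.7, 15.5 and 32.1 CPM against 7.41 and 185 CPM, the controls enclosing the fear conditioned values. Synaptogyrin Syngr3, a vesicle membrane protein, was even across the fear conditioned libraries at 418, 430 and 428 CPM against 319 and 223 CPM. These genes were named after their values were seen.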
